A study of Mus musculus with 3 samples.

Results

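Tnfaip3 and 9 other genes of the NF-κB pathway were followed in single spinal cord microglia. The 10 genes were chosen by name from the 27998 genes of the matrix and fall into 3 groups by role. Tnfaip3, Tnip1 and Cyld act on the ubiquitin chains that carry the signal, Nfkbia, Nfkbiz and Nfkbid belong to the IκB family, and Nfkb1, Nfkb2, Rel and Rela encode subunits of the transcription factor itself. Levels are given as CPM, the UMIs of a gene per 1000000 UMIs of the library. All 10 had a mean of at least 5 CPM over the libraries and were kept, as were 9504 genes in all.

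Microglia came from the lumbar cord of C57BL/6 mice heterozygous for Cx3cr1-creER-yfp and were sorted by YFP, in these mice a marker that the Cx3cr1 promoter drives. The 3 groups are naive animals, animals 24 h and animals 48 h after sciatic nerve transection, all of the same genotype, with 3 animals pooled per group. Each group gave 1 droplet library, so there are no replicates and no test between groups is possible. The cells carry a barcode suffix of 1, 2 or 3 that no label ties to a time point, so the libraries are called 1, 2 and 3 and none of them was given a time point.

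The libraries hold 609, 3591 and 3322 cells with a median of 2218, 5952 and 5742 UMIs per cell. A UMI is a molecular tag by which each captured transcript is counted. The microglia markers P2ry12 and Tmem119 were high in every library, at 4081, 2267 and 2517 CPM and at 2823, 3416 and 3814 CPM in libraries 1, 2 and 3. The 51 markers of 10 other cell types summed to between 260.2 and 332.8 CPM, with 36, 7 and 11 of them at 0 in libraries 1, 2 and 3. Library 1 has far fewer UMIs in all, so its counts at 0 do not compare with the others. The largest sums were those of astrocyte markers (166.8, 102.9 and 111.4 CPM) and oligodendrocyte markers (78.9, 64.2 and 73.2 CPM). B cell markers followed (41.0, 54.5 and 39.2 CPM). Of 5 T or NK cell markers 4, 1 and 3 were at 0, and they summed to 0.745, 14.3 and 0.253 CPM. Of 7 perivascular macrophage markers 6, 2 and 3 were at 0, Cd163 and Lyve1 in every library, and they summed to at most 2.28 CPM. Cells with at least 3 markers of another type numbered 0, 11 and 11, of which oligodendrocyte markers gave 0, 5 and 5. Of the barcodes, 25 occurred in more than 1 library, on 51 cells in all. Doublets were not called and all cells were kept.

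NF-κB dimers wait in the cytoplasm bound to IκB proteins. Receptors for TNF, interleukin-1 and microbial products build ubiquitin chains that activate the IκB kinase, IκB is degraded, and the dimers enter the nucleus and switch on cytokine, chemokine and survival genes. Some of the induced genes close the loop, since newly made IκBα recaptures the dimers and A20, the product of Tnfaip3, takes apart the ubiquitin signal. In microglia the pathway is best known for inflammatory activation, and the study asks how Tnfaip3 bears on microglial proliferation.

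All 10 genes were matched by Ensembl identifier to GENCODE M21 on GRCm38. Tnfaip3 (ENSMUSG00000019850) lies on chromosome 10 from 19000910 to 19015657 on the minus strand. Nfkbia (ENSMUSG00000021025) lies on chromosome 12 from 55489410 to 55492647 on the minus strand, and Nfkbiz (ENSMUSG00000035356) on chromosome 16 from 55811375 to 55838899, also on the minus strand. Nfkbid (ENSMUSG00000036931) lies on chromosome 7 from 30421732 to 30428746 on the plus strand. Nfkb2 shares its locus with Psd on the opposite strand, which had 3, 5 and 14 UMIs in libraries 1, 2 and 3, and whether the counting used strand is not stated in the sources read here. The other overlapping annotations, beside Tnip1, Cyld, Nfkb1 and Nfkb2, are absent from the gene list of the matrix.

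RefSeq promoter windows (GRCm38.p6) were matched for 8 of the 10 genes, not for Nfkbiz or Nfkb1. The 250 bases before the start farthest upstream were searched on both strands for the kB consensus, a 10-base site that reads 3 G, a purine, any base, A or T, a pair of pyrimidines and 2 C. A match was present in 6 of the 8 windows (Tnfaip3, Tnip1, Cyld, Nfkbia, Nfkb2 and Rel), against 3.74% of 27025 promoters. Nfkbid and Rela had none in this window. For Nfkb2, Rel and Rela, 0 bases next to the start were free of annotated exons. The window of Nfkb2 lies inside the GENCODE span of the gene. The sequences below are those of Tnfaip3, of Tnip1 and of the IκB genes Nfkbia and Nfkbid. Each runs 5′ to 3′ on the gene's strand and ends at the base before the start, with kB matches in capitals. For Tnfaip3 (chr10:19015411-19015547, minus strand) the 137 bases free of annotated exons are shown, with matches that begin 125 and 12 bases before the start. This start is that of RefSeq, and the bases shown lie inside the GENCODE span of Tnfaip3 given above. Those of Tnip1 (chr11:54962941-54963190, minus strand) overlap each other in a palindrome, Nfkbia (chr12:55492648-55492897, minus strand) has 1 match that begins 29 bases before the start, and Nfkbid (chr7:30421481-30421730, plus strand) is given as the window without a match.
Tnfaip3: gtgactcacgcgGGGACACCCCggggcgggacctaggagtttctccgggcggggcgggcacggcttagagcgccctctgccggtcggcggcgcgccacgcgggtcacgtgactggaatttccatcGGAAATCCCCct
Tnip1: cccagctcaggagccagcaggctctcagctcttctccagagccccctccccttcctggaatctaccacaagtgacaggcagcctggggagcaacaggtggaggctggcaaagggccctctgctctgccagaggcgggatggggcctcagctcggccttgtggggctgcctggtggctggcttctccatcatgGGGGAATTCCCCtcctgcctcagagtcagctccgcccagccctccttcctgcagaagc
Nfkbia: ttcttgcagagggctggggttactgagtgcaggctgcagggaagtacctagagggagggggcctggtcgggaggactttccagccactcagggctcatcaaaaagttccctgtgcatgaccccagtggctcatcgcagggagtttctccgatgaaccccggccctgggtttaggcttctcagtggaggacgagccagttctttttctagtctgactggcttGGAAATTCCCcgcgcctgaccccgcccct
Nfkbid: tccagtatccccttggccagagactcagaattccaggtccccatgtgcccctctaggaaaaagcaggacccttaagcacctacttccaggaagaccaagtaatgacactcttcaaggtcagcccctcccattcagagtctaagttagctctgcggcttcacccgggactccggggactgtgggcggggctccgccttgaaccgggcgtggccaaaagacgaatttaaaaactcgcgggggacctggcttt

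CPM were taken from the UMIs summed over all cells of a library, with exact Poisson 95% intervals. As UMIs are counted at 3′ ends, levels were not divided by transcript length. Shares are the percent of cells with at least 1 UMI after each cell was thinned to 2000 UMIs, which leaves 408, 3569 and 3284 cells, with exact (Clopper-Pearson) 95% intervals. Both kinds of interval cover counting error only and not the spread between animals. No cell type that lacks these genes was at hand to measure the share that free RNA gives, so the part of free RNA in the shares was not tested.

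Tnfaip3, which encodes the ubiquitin-editing enzyme A20, was low in library 2 and high in the other two. Its level was 23.8 CPM (16.3 to 33.6, 32 UMIs) in library 1, 7.18 CPM (6.15 to 8.33, 173 UMIs) in library 2 and 28.8 CPM (26.5 to 31.2, 569 UMIs) in library 3. The interval of library 2 lay apart from both others, which overlapped each other. Library 3 was 4.01-fold above library 2 (95% interval of the ratio 3.38 to 4.78), and library 1 was 3.32-fold above library 2 (2.20 to 4.86). Library 3 was 1.21-fold above library 1 (0.846 to 1.78), a difference that was not detectable at this depth. At equal depth Tnfaip3 was found in 4.66% (2.83 to 7.18), 1.74% (1.33 to 2.22) and 5.66% (4.90 to 6.51) of the cells of libraries 1, 2 and 3, the same order as the levels. Before thinning, 439 of the 499 cells with Tnfaip3 in library 3 had 1 UMI and none more than 4, and these cells were deeper than the rest of the library (median 6246 against 5654 UMIs).

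Tnip1, the ubiquitin-binding partner of A20 also called ABIN1, was the lowest of the 10 genes in library 3. It measured 11.2 CPM (6.25 to 18.4) in library 1, 11 CPM (9.75 to 12.4) in library 2 and 13 CPM (11.5 to 14.7) in library 3, with intervals that all overlapped. The ratio of library 3 to library 2 was 1.18 (0.988 to 1.4). Cyld, a deubiquitinase that trims the same chains by another route, measured 27.5 CPM (19.4 to 38.0), 24.1 CPM (22.2 to 26.2) and 21.4 CPM (19.5 to 23.6) in libraries 1, 2 and 3. These intervals overlapped as well, and library 3 stood at 0.890 of library 2 (0.783 to 1.01). The low level of Tnfaip3 in library 2 had no counterpart of its size in Tnip1 or Cyld.

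Nfkbia, Nfkbiz and Nfkbid were highest in library 3, by more than counting error. Nfkbia, which encodes IκBα, the inhibitor that holds the dimers in the cytoplasm, measured 205.5 CPM (182.0 to 231.2) in library 1, 191.3 CPM (185.8 to 196.9) in library 2 and 517.1 CPM (507.1 to 527.2) in library 3. Libraries 1 and 2 overlapped and library 3 lay above both, at 2.52-fold (2.23 to 2.85) and 2.70-fold (2.61 to 2.80). At equal depth it was found in 28.7% (24.3 to 33.3), 31.3% (29.8 to 32.8) and 59.8% (58.1 to 61.5) of their cells.

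Nfkbiz, which encodes the nuclear protein IκBζ that helps NF-κB at part of its targets, differed most. It measured 21.6 CPM (14.5 to 31.0) in library 1, 19.8 CPM (18.0 to 21.6) in library 2 and 194.0 CPM (187.9 to 200.2) in library 3. Library 3 was 8.98-fold above library 1 (6.25 to 13.4) and 9.82-fold above library 2 (8.93 to 10.8), with no overlap. The share of cells was 4.90% (3.02 to 7.47), 3.61% (3.03 to 4.28) and 29.7% (28.1 to 31.3). More UMIs per cell went with it, as 49.5% of the 2003 cells of library 3 with Nfkbiz before thinning had more than 1 UMI, compared with 8.35% of 431 cells in library 2.

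Nfkbid, which encodes IκBNS, another nuclear member of the family, was the lowest of these 3 genes. Its level was 9.68 CPM (5.15 to 16.6, 13 UMIs) in library 1, 13.1 CPM (11.7 to 14.6) in library 2 and 29.9 CPM (27.5 to 32.4) in library 3. Library 3 exceeded library 2 by 2.28-fold (1.99 to 2.62) and library 1 by 3.09-fold (1.79 to 5.84), and libraries 1 and 2 overlapped. Shares at equal depth were 1.96% (0.850 to 3.83), 2.55% (2.06 to 3.12) and 5.94% (5.15 to 6.80).

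**Figure D1:**
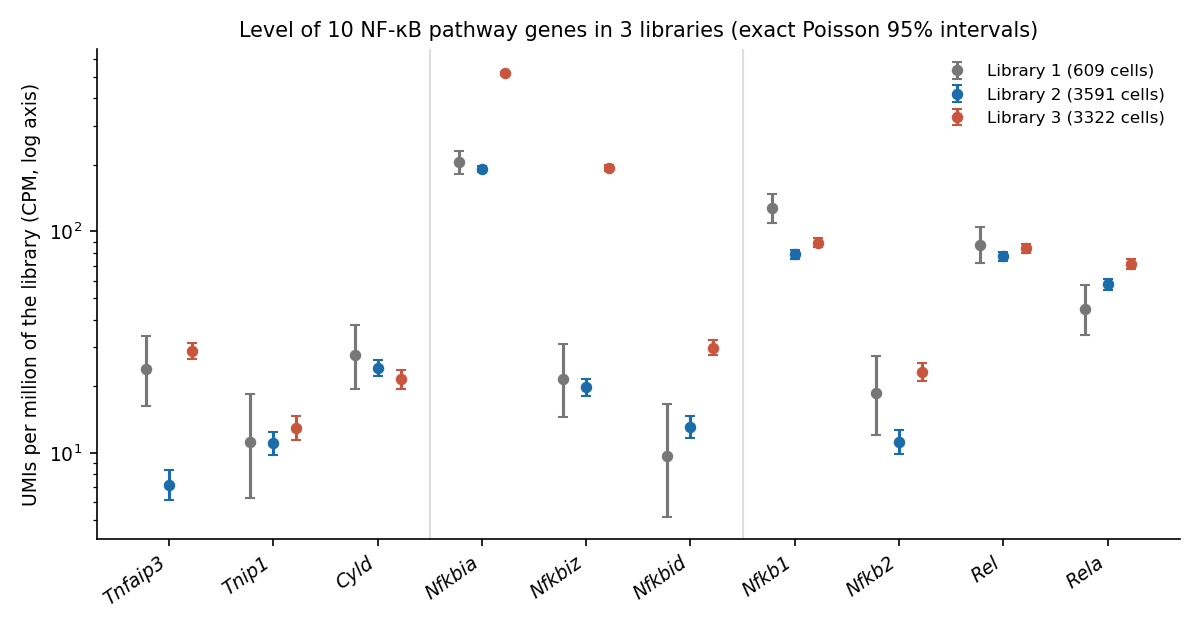
Level of each of the 10 genes in CPM (log axis) in libraries 1, 2 and 3, with exact Poisson 95% intervals and vertical lines between the 3 role groups. Nfkbia reaches 517.1 and Nfkbiz 194.0 in library 3, Tnfaip3 is at 7.18 in library 2, and Tnip1, Cyld and Rel have overlapping intervals in all 3 libraries.

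The subunits differed less. Nfkb1, which encodes p105 and its product p50, measured 127.3 CPM (109.0 to 147.9) in library 1, 78.9 CPM (75.4 to 82.6) in library 2 and 88.8 CPM (84.7 to 93.0) in library 3. The 3 intervals lay apart from each other, library 1 being 1.61-fold above library 2 (1.37 to 1.89). The share of cells was 21.6% (17.7 to 25.9), 14.8% (13.6 to 16.0) and 16.6% (15.3 to 17.9). Among these shares libraries 1 and 2 lay apart, and the interval of library 3 overlapped both. Nfkb2, the p100 and p52 subunit gene of the non-canonical arm, measured 18.6 CPM (12 to 27.5), 11.2 CPM (9.91 to 12.6) and 23.2 CPM (21.1 to 25.4). Like Tnfaip3 it was lowest in library 2, with library 3 at 2.07-fold (1.78 to 2.41), while the interval of library 1 overlapped both others. Taken as a ratio, library 1 was 1.66-fold above library 2 (1.06 to 2.51).

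Rel, which encodes c-Rel, was the most even of the 10, at 87.1 CPM (72.0 to 104.4), 77.2 CPM (73.7 to 80.8) and 83.8 CPM (79.8 to 87.9). All its intervals overlapped, the ratio of library 3 to library 2 was 1.09 (1.02 to 1.16), and its shares of 14.5%, 14.4% and 15.5% differed by less than their intervals. Rela, the p65 subunit that carries the main activating domain, measured 44.7 CPM (34.1 to 57.5), 57.6 CPM (54.6 to 60.7) and 71.4 CPM (67.7 to 75.2). Library 3 lay above both, 1.24-fold over library 2 (1.15 to 1.34) and 1.60-fold over library 1 (1.23 to 2.1), and libraries 1 and 2 overlapped.

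**Figure D2:**
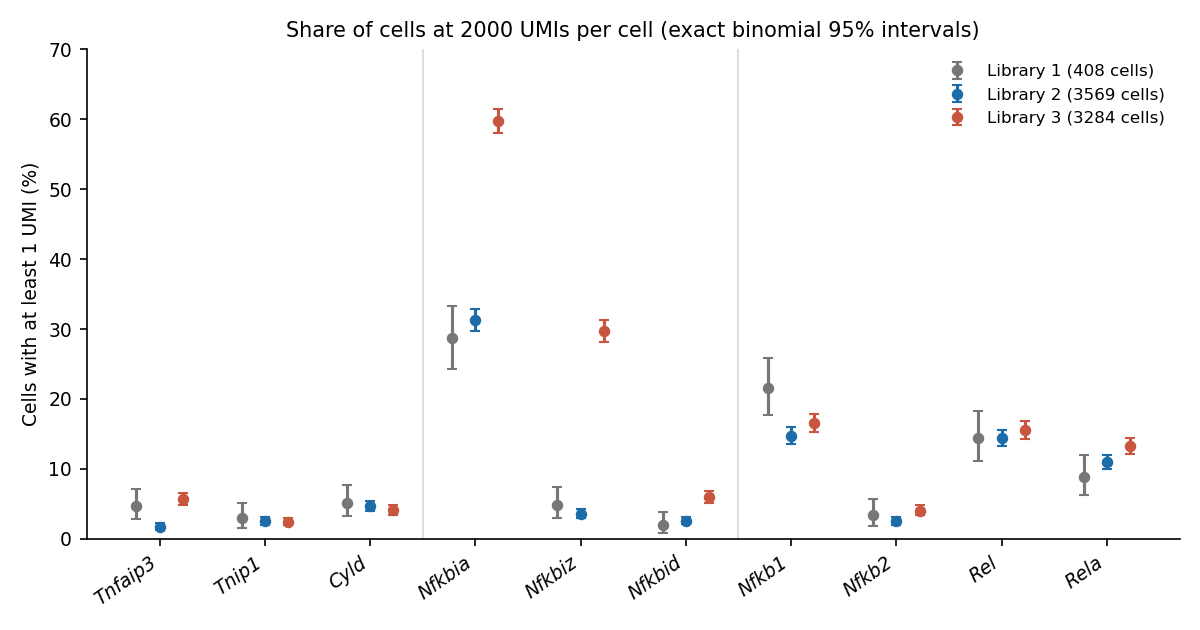
Percent of cells with at least 1 UMI of each gene after thinning to 2000 UMIs per cell, with exact binomial 95% intervals, in 408, 3569 and 3284 cells of libraries 1, 2 and 3. Nfkbia (59.8%) and Nfkbiz (29.7%) stand out in library 3, while Rel lies between 14.4% and 15.5% throughout.

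The order of the genes by level also differed between libraries. Nfkbia was first in each. In library 1 it was followed by Nfkb1, Rel and Rela, each apart from the gene before it, and from Rela downward each neighbour overlapped the next. In library 2 Nfkb1 and Rel came next and overlapped, and Tnfaip3 was last, apart from Tnip1 above it. In library 3 Nfkbiz came right after Nfkbia, apart from Nfkb1 below it, and Tnfaip3 overlapped Nfkbid above it.

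Ratios were then set beside those of all genes tested, on the log2(CPM + 1) scale and with a ratio of at least 2-fold as the call. The members and the gene lists were chosen with earlier results of these data known, so the counts called are a description and not independent evidence. For library 3 over library 2, 4 of the 10 genes were called higher, against 1.38% of all 9504 genes, and 0 lower, against 2.45%. The 4 were Nfkbiz (log2 3.23), Tnfaip3 (1.86), Nfkbia (1.43) and Nfkbid (1.13). Nfkb2 fell just short at 0.99, and the other 5 lay between -0.16 and 0.30. The median of the 10 was 0.65, compared with -0.03 over all genes.

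For library 3 over library 1, 3 of the 10 were called higher, against 3.97% of all genes, and 0 lower, against 6.13%. The 3 are the IκB genes among the members, at 3.11 for Nfkbiz, 1.53 for Nfkbid and 1.33 for Nfkbia. The median of the 10 was 0.28 and that of all genes -0.11. For library 2 over library 1, 0 of the 10 were called higher, against 5.2% of all genes, and 1 lower, against 4.65%, which was Tnfaip3 at -1.60. Here the median of the 10, -0.15, was near that of all genes, -0.10. The 3 comparisons share libraries and are not independent of each other. Library 1 has 1343055 UMIs, against 24097543 and 19769170 in libraries 2 and 3. Ratios to library 1 therefore carry more counting error, in the members and in all genes. How much of the shares of all genes this makes up was not tested, so those shares are not equal yardsticks between comparisons.

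Of 46 other genes of the pathway, its receptors, adaptors, kinases and ubiquitin ligases, 40 passed the level filter. For library 3 over library 2, 1 (2.5%) was called higher, against 1.38% of all genes, and 0 lower, against 2.45%. Their median log2 ratio was 0.14. The 1 was Relb, the partner of p52, with 26.1, 26.4 and 54.1 CPM in libraries 1, 2 and 3 and a log2 ratio of 1.01. The other classical IκB genes are in this list and were not called in any comparison. They were looked up after their values were seen. Nfkbib, which encodes IκBβ, measured 35.7, 38.5 and 44.2 CPM, and Nfkbie, which encodes IκBε, 16.4, 18.5 and 17.8 CPM, with log2 ratios of 0.19 and -0.06 for library 3 over library 2 and 0.30 and 0.11 for library 3 over library 1. Next to Relb came Birc3 (0.56) and Zc3h12a, which encodes the RNA-degrading enzyme regnase (0.54), both under 2-fold. Malt1, the paracaspase (0.52), and Map3k8, the kinase Tpl2 (0.52), followed. At the other end stood Map3k14, the kinase NIK (-0.42), Ikbkb, the IκB kinase subunit β (-0.37), and Itch, a ubiquitin ligase that works with A20 (-0.34). Traf3 (-0.25) and Tradd (-0.21), adaptors of TNF family receptors, were close by. For library 3 over library 1, 2 (5%) were called higher and 2 (5%) lower, against 3.97% and 6.13% of all genes. For library 2 over library 1, 1 (2.5%) was called higher and 4 (10%) lower, against 5.2% and 4.65%.

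Of 30 genes known to be induced through NF-κB, 22 passed the filter. For library 3 over library 2, 8 (36.4%) were called higher, against 1.38% of all genes, and 1 (4.55%) lower, against 2.45%. Their median was 0.40. Ccl3 and Ccl4, chemokines that attract leukocytes, reached 855.6 and 785.5 CPM in library 3, from 55.7 and 94.2 CPM in library 2, and log2 ratios of 3.92 and 3.05. Both also belong to a list that the study chose on these samples, so they are no independent evidence of direction. The target list as a whole was also chosen with earlier results of these data known. Ccl2, the monocyte chemokine, followed at 2.51, with 446.0 CPM in library 3. Tnf, the cytokine that switches on the pathway through its receptor, measured 11.9, 37.3 and 161.9 CPM and a log2 ratio of 2.09 for library 3 over library 2. Ccrl2, an atypical chemokine receptor, stood at 2.03 and was, like Tnfaip3, lowest in library 2, at 29.0, 11.4 and 49.4 CPM. The 1 lower was Ccl5 (-1.81), a chemokine that T and NK cells also make, with 28.3 CPM in library 2 and 7.39 CPM in library 3. The summed T or NK cell markers stood at 14.3 and 0.253 CPM in the same libraries, and their part in the level of Ccl5 was not tested. The other 4 at the low end were Cxcl10 (-0.29), Cxcl16 (-0.18), Cd83 (0.02) and Bcl2a1a (0.02). For library 3 over library 1, 8 (36.4%) were called higher and 1 (4.55%) lower, against 3.97% and 6.13% of all genes. For library 2 over library 1 these were 4 (18.2%) and 2 (9.09%), against 5.2% and 4.65%.

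**Figure D3:**
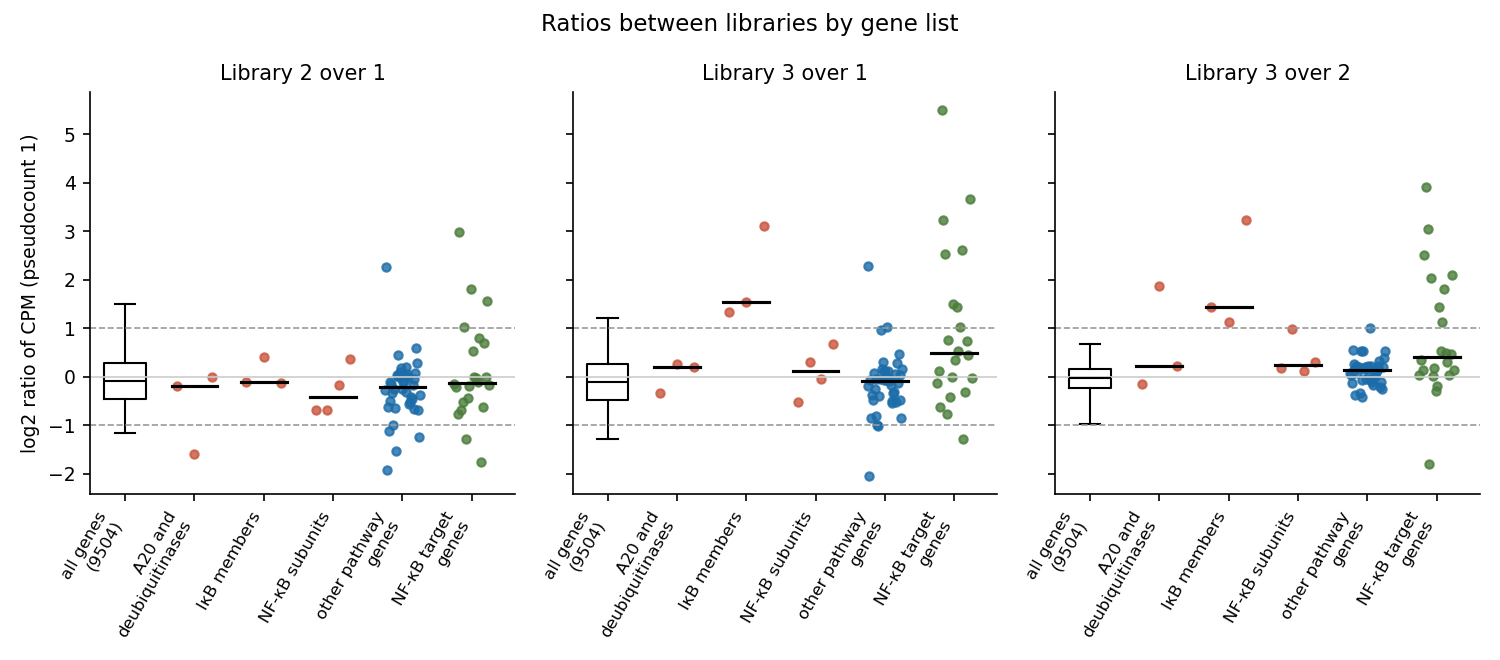
Log2 ratio of CPM (pseudocount 1) between libraries for the 3 groups of members, 40 other pathway genes and 22 target genes, each point a gene and each bar a median, beside a box of all 9504 genes with whiskers from the lowest 2.5% to the highest 2.5%. Dashed lines mark 2-fold. The 3 IκB members lie above 2-fold in both comparisons of library 3, and most other pathway genes lie between the dashed lines.

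Co-expression with Tnfaip3 was described within each library at 2000 UMIs per cell, where 19, 62 and 186 cells had a Tnfaip3 UMI. Library 1 has too few of them for a ratio of shares. In library 3 the shares of the other 9 genes had overlapping intervals in cells with and without Tnfaip3. Before thinning Tnfaip3 was found in 15.0% of the cells of library 3, and after it in 5.66%. Some cells called without Tnfaip3 therefore hold transcripts of it that were not counted, and how far this moves the ratios was not tested. Nfkbia was found in 112 of 186 cells with Tnfaip3, 60.2% (52.8 to 67.3), and in 59.7% (58.0 to 61.5) of the 3098 without. Nfkbiz was found in 31.7% (25.1 to 38.9) and 29.6% (28.0 to 31.2), so both IκB genes were about as frequent in cells where Tnfaip3 was counted as in the others.

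The widest gaps in library 3 were those of Nfkbid, found in 9.14% (5.41 to 14.2) of cells with Tnfaip3 and 5.75% (4.95 to 6.62) of those without, and Nfkb2, in 5.91% (2.99 to 10.3) and 3.94% (3.28 to 4.68). These 2 of 9 genes had a ratio of at least 1.5, with intervals that overlapped, as all 9 did, against 1.01% of 9503 genes whose intervals lay apart. Neither ratio held in another random draw, which gave 1.04 for Nfkbid and 0.818 for Nfkb2. Among the 5121 genes found in at least 5% of cells, 2.13% had such a ratio, and Nfkbid was the 1 of the 6 members in that set that did. Tnip1, the binding partner, was found in 2.69% (0.878 to 6.16) and 2.42% (1.91 to 3.03). Cyld stood below 1, at a ratio of 0.781.

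In library 2, with 62 cells with Tnfaip3, all 9 intervals overlapped too, against 1.23% of 9503 genes whose intervals lay apart. Nfkbia was found in 37.1% (25.2 to 50.3) and 31.2% (29.6 to 32.7), and Nfkb1 in 12.9% (5.74 to 23.9) and 14.8% (13.6 to 16.0). Cyld (1.74) and Nfkb2 (1.97) had a ratio of at least 1.5, the first on 5 and the second on 3 cells. Another random draw gave 0.351 for Cyld, on the other side of 1, and 2.29 for Nfkb2. The same ratio was reached by 8.26% of 5193 genes in this library, and by 0 of the 4 members among them.

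**Figure D4:**
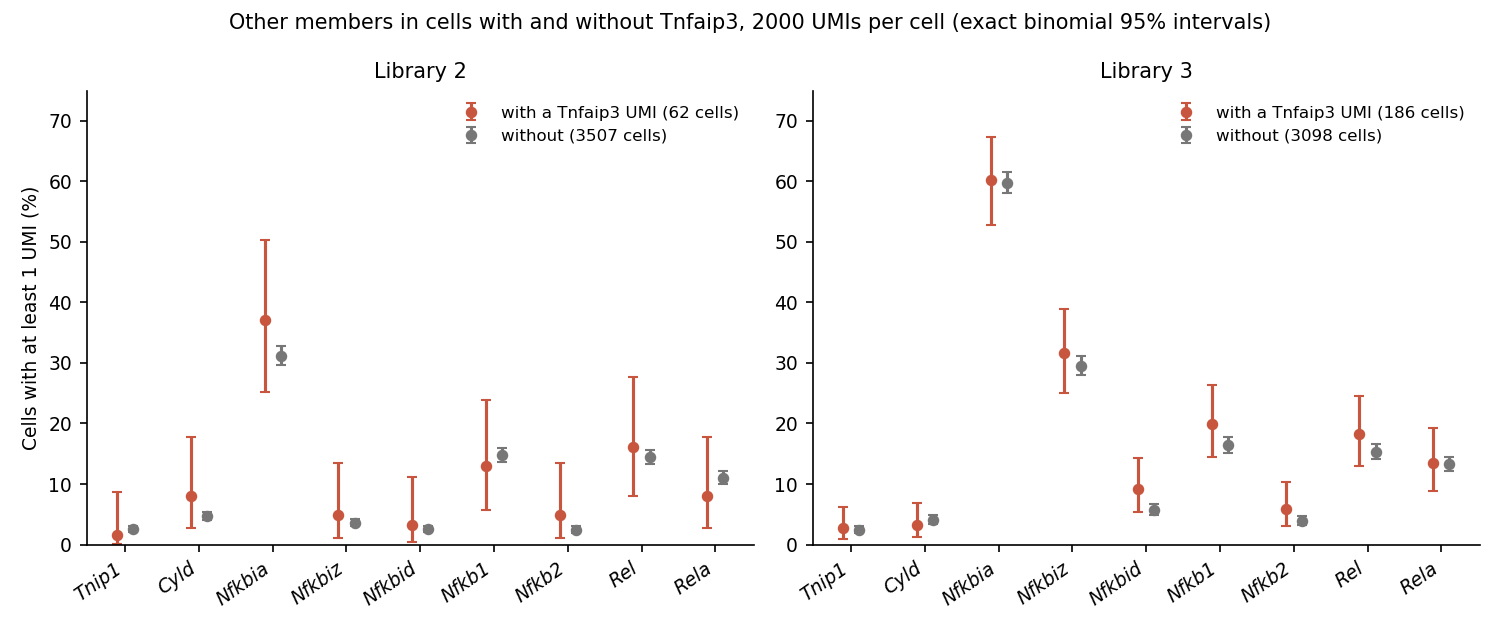
Percent of cells with at least 1 UMI of each other member among cells with and without a Tnfaip3 UMI, at 2000 UMIs per cell, in libraries 2 and 3, with exact binomial 95% intervals. In each pair the intervals overlap, and those of the 62 and 186 cells with Tnfaip3 are wide.

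Pairs of members were read in the same way. The number of cells with both genes was divided by the product of their shares, for pairs where that product comes to at least 20 cells. Each interval is the exact Poisson interval of the number of cells with both, with the expected number held fixed. For frequent genes it is wider than the fixed shares allow, so a small departure from 1 can go unseen. In library 3 the 30 such pairs of 45 had ratios from 0.865 to 1.30 (median 1.02), and 0 of these wide intervals left out 1. The same count over pairs of all genes was not made, so this is a description only. In library 2 the 13 such pairs ranged from 0.685 to 1.30. Under the minimum of 20 cells, the interval of Nfkbid and Nfkb1 in library 2 did leave out 1. They were found together in 6 cells, a ratio of 0.447 (0.164 to 0.972). Nfkbia and Nfkbiz, both high in library 3, were found together in 594 of its cells, a ratio of 1.02 (0.939 to 1.10). Cells with a UMI of Tnf, 812 in library 3, also differed little from the 2472 others, with 0 of 10 intervals apart, against 0.652% of 9503 genes, and ratios from 0.836 to 1.25.

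The genes whose UMIs in library 3 were most like those of Tnfaip3, by Pearson's r of log(1 + UMIs) over 3284 thinned cells among 5121 genes, were Terf1 (0.08), Ifi27l2a (0.06), Lipe (0.06), Ebi3 (0.06), Bcl2a1b (0.06), Mad2l1bp (0.06), Kmt2a (0.06), Tor1b (0.06), Hspa8 (0.06) and Dusp6 (0.06). In library 2 the same 10 lay between -0.03 and 0.03. The members themselves lay between -0.01 (Cyld) and 0.03 (Nfkbid) in library 3, where all genes ranged from -0.06 to 0.08. With counts this sparse, values of this size are a description and not a relation.

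The study asks about proliferation, so the members were also read in cells with a UMI of Mki67, which marks cycling cells, and of Myc, a growth regulator. Mki67 was found in 510 of 3569 cells at equal depth in library 2 and in 1 and 7 cells of libraries 1 and 3, so only library 2 gives a comparison. Tnfaip3 was found in 6 of the 510 cells, 1.18% (0.433 to 2.54), and in 1.83% (1.39 to 2.37) of the 3059 others, with overlapping intervals. Intervals lay apart for 1 of the 10 members, against 1.67% of 9503 genes. This was Nfkb1, found in 10.4% (7.88 to 13.4) of cells with Mki67 and 15.5% (14.2 to 16.8) of those without. In another random draw its intervals overlapped, at 12.2% (9.42 to 15.3) and 14.2% (13 to 15.5). Without thinning, where cells are not of equal depth, the order turned, at 43.3% and 38.6%, with overlapping intervals.

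By Myc 1 of the 10 members also had intervals apart in library 2, against 1.08% of 9503 genes. Nfkb1 was found in 21.6% (16.9 to 27.0) of 273 cells with Myc and 14.2% (13 to 15.4) of those without. Another draw gave 12.7% (8.98 to 17.3) and 14.0% (12.8 to 15.2). Without thinning, where cells are not of equal depth, it was 44.3% and 39.0%, with intervals just apart. As neither gap stayed apart in the other draw at equal depth, no direction for Nfkb1 is read from either gene. In library 3, where 512 cells had Myc, it was found in 14.3% (11.3 to 17.6) and 17.0% (15.6 to 18.5), and 0 of the 10 members had intervals apart, against 0.8% of all genes. Tnfaip3 was found in 4.88% (3.18 to 7.12) and 5.81% (4.97 to 6.74) there.

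Last, the members were read along a sum of 24 early response genes such as Fos, Jun and Egr1, none of which is a member. Most of these genes are in a list that the study chose on these samples, so the sum is not independent evidence. The median sum per thinned cell was 8, 8 and 63 UMIs in libraries 1, 2 and 3. Each library was ranked by the sum, a range and not a cell type. The 1094 cells with the lowest sum in library 3 reached 49 UMIs and the 1094 with the highest began at 77, with 139 and 149 cells near those bounds. In libraries 1 and 2 the lowest cells reached 6 UMIs and the highest began at 9. Near these bounds lay 129 and 139 cells of library 1 and 1230 and 1098 cells of library 2. The ends of libraries 1 and 2 therefore lie close together.

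In library 3 Nfkbia was found in 53.1% (50.1 to 56.1) of the lowest and 66.8% (63.9 to 69.6) of the highest cells. Nfkbiz was found in 22.6% (20.1 to 25.2) and 36.2% (33.3 to 39.1), and Tnfaip3 in 4.02% (2.94 to 5.36) and 7.04% (5.59 to 8.72). In these 3 of the 10 genes the interval of the highest cells lay above that of the lowest, as it did in 1.15% of 9482 genes outside the sum. Another random draw kept both IκB genes apart (55.5% and 65.0% for Nfkbia, 20.7% and 36.7% for Nfkbiz), while those of Tnfaip3 overlapped, at 5.30% (4.05 to 6.80) and 7.31% (5.84 to 9.02). In the main draw Tnip1 was found in 1.55% (0.908 to 2.48) and 3.20% (2.24 to 4.42), with a slight overlap, and the subunit genes had ratios from 0.993 to 1.21. In library 2, with 1189 cells at each end, Nfkbia (27.8% and 33.9%) and Nfkbiz (2.35% and 4.71%) lay apart in the main draw. These were 2 of the 10 genes, against 0.453% of all. Both overlapped in the other draw, and both lay apart without thinning, where cells are not of equal depth. Tnfaip3 was at 1.93% (1.23 to 2.89) and 1.60% (0.965 to 2.48). In library 1, with 136 cells at each end, 0 of the 10 lay apart, against 0.148% of all genes.

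**Figure D5:**
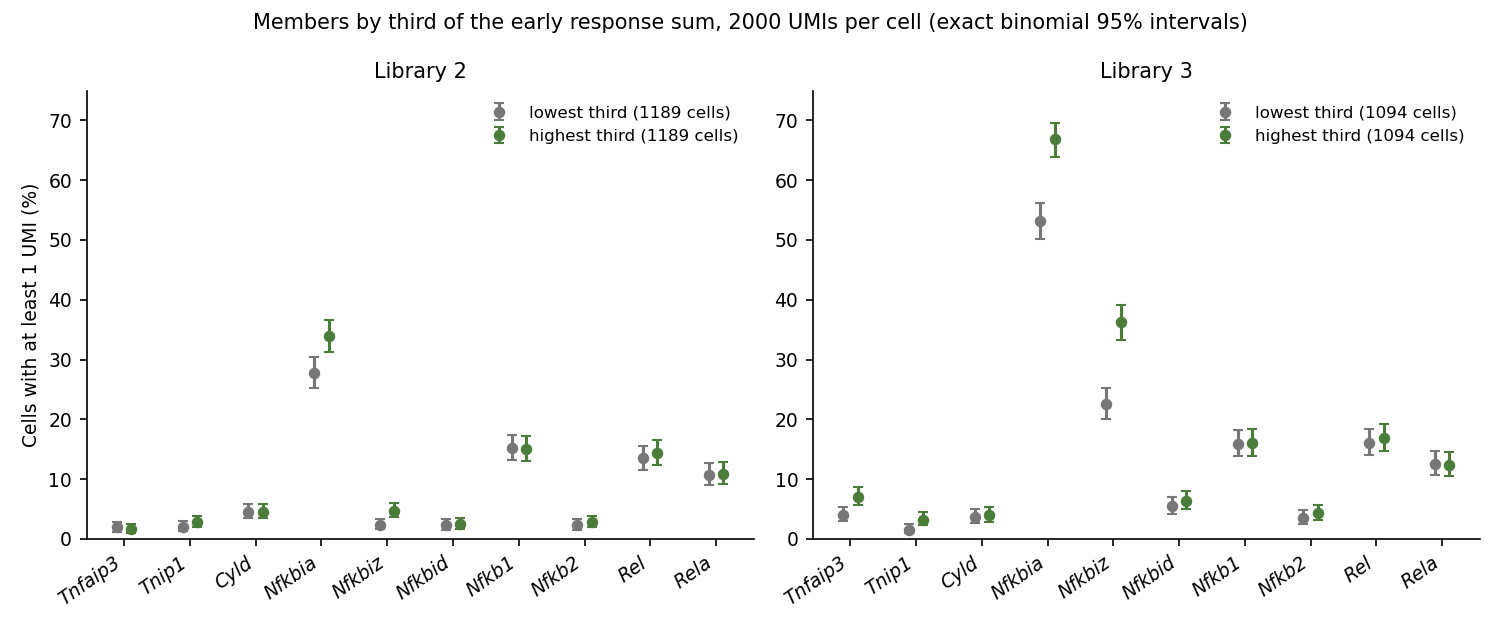
Percent of cells with at least 1 UMI of each member in the 1094 (library 3) or 1189 (library 2) cells with the lowest and the highest early response sum, at 2000 UMIs per cell, in libraries 2 and 3, with exact binomial 95% intervals. In library 3 Nfkbia (53.1% and 66.8%) and Nfkbiz (22.6% and 36.2%) are more frequent at the high end, and the 4 subunit genes lie at like shares at both ends. Tnfaip3 is also more frequent there, but its intervals lie apart in this draw only of the 2 made at equal depth.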

How the data were processed

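YFP (+) lumbar microglia of 3 groups were sequenced as 1 library each with 10x Genomics 3′ chemistry. The authors deposited raw UMI counts, 1 value for each gene in each cell, as 1 matrix of 27998 genes and 7522 cells. The submitters' processing notes name Cell Ranger 2.1.1 and the mm10 build. The annotation and the cell-calling rule were not given in the sources used here. Library totals were 1343055, 24097543 and 19769170 UMIs, and thinning left out 201, 22 and 38 cells under 2000 UMIs.

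The members and gene lists were chosen with earlier results of these data known. Cells were thinned to 2000 UMIs without replacement (seed 1), and CPM was computed from summed counts with a pseudocount of 1 for log2 ratios. Genes needed a mean of at least 5 CPM over the libraries. Without replicates no test was run. Intervals are exact at 95% (Clopper-Pearson for shares, Poisson for sums and for pairs of members, conditional binomial for ratios of CPM). Ratios of shares were read with at least 50 cells with the index gene. Named genes are all members, the 5 highest and 5 lowest log2 ratios of library 3 over library 2 in the pathway and target lists, the 10 genes most like Tnfaip3, Myc and Mki67. The log2 ratio and the 2-fold call were tested on counts simulated at the totals of libraries 2 and 3. The ratio of shares was tested on simulated cells of 2000 UMIs. Library 1, the pairs, the correlations, the early response ends and the promoter search were not simulated. Alternatives were other depths and draws, cell filters, pseudocounts, scalings and thresholds. The work used pandas 2.3.3, numpy 2.4.6, scipy 1.17.1 and matplotlib 3.10.9 under Python 3.11.15. Some marker genes are not reported here.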

Additional observations from a re-analysis of the deposited data

How the results depend on the processing

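No replicate exists, so no library could be left out and no spread between animals enters any interval. No paired analysis was possible because each group has 1 library. Of 694 values recomputed under an alternative, 542 moved by less than their interval or 1.5 times, 145 moved further and 7 turned to the other side of 1 after a call. All 7 are ratios of shares within a library. The Tnfaip3 share depends on depth. In libraries 1, 2 and 3 it was 2.73, 0.947 and 2.5% at 1000 UMIs per cell and 11.1, 2.89 and 11% at 4000, where library 1 keeps only 9 cells. Without thinning it was 5.09% (3.48 to 7.15), 4.62% (3.96 to 5.36) and 15.0%, so that libraries 1 and 2 overlapped, and with at least 2 UMIs required it was 0.245, 0.0560 and 0.183%. Library 2 was the lowest of the 3 in each of these settings, though with at least 2 UMIs the order rests on very few cells. Before thinning, 1 cell of library 1 had 2 Tnfaip3 UMIs and 0 had more. In library 2, 5 cells had 2 and 1 had 3 or more.

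Members with a share at least 1.5 times as high in cells with Tnfaip3 numbered 1 in library 2 and 0 in library 3 at 4000 UMIs and also without thinning. In library 3 they numbered 1 with another random draw, which was Tnip1 (1.52) and neither of the 2 named before, 1 without the deepest 5% of cells and 0 with at least 2 UMIs. The ratios that turned were Cyld in library 2, at 0.351 with another draw and 0.728 without thinning, and in library 3 Nfkb2, at 0.818 with another draw and 0 with at least 2 UMIs, and Nfkbid, at 0 with at least 2 UMIs. In library 2 the ratio of Nfkb1 turned to 0.910 by Myc with another draw and to 1.12 by Mki67 without thinning. Members at least 2-fold lower in library 2 than in library 1 numbered 0 with a minimum of 20 CPM and 3 at 1.5-fold. Those at least 2-fold higher in library 3 than in library 2 numbered 2 with that minimum, as Tnfaip3 and Nfkbid drop out. For the counts in this paragraph the share of all genes at the changed setting is not given. They show only how the calls move. The expected share over all draws, and shares and levels without cells of shared barcodes, which were added after the data were seen, moved none of these results. The pairs of members, the shares by Tnf, the shares of all genes with intervals apart, and the other draw and the unthinned values by Myc, Mki67 and early response sum were also added after the data were seen. Other scalings moved the median of all genes by at most 0.05 on the log2 scale. The log2 ratio of library 3 over library 2 ranged over the alternatives from 3.01 to 3.30 for Nfkbiz, 1.47 to 2.0 for Tnfaip3, 1.39 to 1.47 for Nfkbia, 0.95 to 1.19 for Nfkbid and 0.80 to 1.05 for Nfkb2. Ratios to library 1 moved further for some genes. For library 2 over library 1 the range was -1.73 to -1.24 for Tnfaip3 and -0.68 to -0.08 for Cyld, but -0.11 to -0.09 for Nfkbia. For library 3 over library 1 that of Cyld was -0.89 to -0.24.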

Other observations

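Some pathway genes were apart in library 1 rather than library 3, and were picked after their values were seen. Birc2, which encodes the ubiquitin ligase cIAP1, measured 57.3 CPM (77 UMIs) in library 1, 14.4 CPM in library 2 and 13.1 CPM in library 3. Bcl3, a nuclear IκB relative that works with p50 and p52, went the other way with 2.23 CPM (3 UMIs), 14.4 CPM and 14.8 CPM. Il6, a cytokine target, was highest in library 1 with 31.3 CPM (42 UMIs), against 8.51 CPM and 12.2 CPM. Il1b, another cytokine target, was instead apart in library 3 and low in all, at 2.23 CPM (3 UMIs), 4.65 CPM and 18.7 CPM. Its log2 ratio of library 3 over library 2 was 1.80, so it was called higher there.

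Of the pathway and target lists, 14 genes were under the level filter. Nos2, the inducible nitric oxide synthase, and Ptx3 had 0 UMIs in all 3 libraries. Ptgs2, or cyclooxygenase 2, had 0, 0 and 8 UMIs, and Cxcl1 had 0, 1 and 1. Tnip3, a relative of Tnip1, had 0, 20 and 0 UMIs in libraries 1, 2 and 3.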
